A study of Mus musculus with 10 samples.

Results

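The genes of fibroblast growth factor (FGF) signalling and of the ERK feedback loop were followed in mouse embryonic stem cells from which a CTCF binding element (CBE) near HoxA had been deleted. The set was defined by 38 gene symbols: 21 FGF genes, 5 receptor genes, 8 feedback inhibitors and 4 transcription factor genes that respond to ERK. Each of the 38 symbols matched 1 Ensembl identifier among the 52636 counted. The cells were of E14, a widely used mouse embryonic stem cell line, either unedited (WT) or without the element (CBE-KO), CTCF being a protein that organises chromatin loops. Before the experiment all cells were kept with LIF, the MEK inhibitor PD0325901 and the GSK inhibitor CHIR99021. Both groups then had these factors withdrawn and received retinoic acid at a labelled 2 µM for 24 h before RNA sequencing. There were 2 libraries per group, the labels do not say whether the CBE-KO cells came from a single clone, and the Capture-C libraries of the study were not analysed here. The study asked how the element acts on contacts of nearby enhancers with the HoxA genes, and the comparison here asks which FGF and ERK feedback genes differ when it is missing.

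FGF ligands bind receptor tyrosine kinases on the cell surface together with heparan sulfate, and the receptors activate Ras, Raf, MEK and the kinase ERK. ERK raises the expression of its own inhibitors, among them the Sprouty, Spred and Dusp genes, so the levels of these genes are widely used as a readout of the pathway. In mouse embryonic stem cells Fgf4 is the main ligand, and its signal through ERK helps the cells to leave naive pluripotency. MEK, the kinase that activates ERK, is the step blocked by PD0325901.

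The libraries held 14108038 to 15632960 counts, and 3 counts, taken as the floor of measurement, stood for 0.185 to 0.218 CPM (counts per 1e+06 of a library total scaled by edgeR's TMM factors, which correct for library composition). Replicates differed by more than sampling noise, with a chi-square statistic per degree of freedom of 3.57 for WT and 2.82 for CBE-KO, so neither pair looked like a library deposited in duplicate. Nothing in the labels says how the replicate cultures were kept apart, so p-values measure the spread between these libraries, which may be technical. The log2 ratio below is the fitted log2 fold change of CBE-KO over WT. Of 16005 genes tested with edgeR's quasi-likelihood test, 43.1% passed at a Benjamini-Hochberg adjusted p under 0.05, 21.6% as higher in CBE-KO and 21.5% as lower. All 10 stem cell markers checked were tested, 7 lower and 2 higher, with a summed level of 8199 to 8493 CPM in WT and 7731 to 7872 CPM in CBE-KO. Named after their values were seen, Utf1, Tdgf1 and Lin28a had log2 ratios of -1.67, -1.20 and -1.05, while Dppa5a, the largest part of the sum, rose by 0.28. Of 10 primitive endoderm markers 7 were higher and none lower, also none at an unadjusted p under 0.05, with sums of 243 to 262 CPM in WT and 314 to 322 CPM in CBE-KO. Of 4 tested neural progenitor markers, also named after their values were seen, Pax6 and Sox1 were higher (1.96 and 0.58) and Tubb3 was lower (-0.77). Nes, the other tested marker, did not pass at -0.31 (edgeR adjusted p = 0.0687). Pax6 had only 10 and 9 counts in the WT libraries and entered the test through its higher CBE-KO counts. The neural progenitor list summed to 88.4 to 98.3 CPM in WT and 69.0 to 69.8 CPM in CBE-KO, most of it Tubb3. Sums in the same order were, for mesoderm, 19.1 to 19.8 and 21.4 to 21.6 CPM and for trophoblast 100.4 to 110 and 105.0 to 106 CPM. For fibroblast they were 193 to 197 and 225 to 228 CPM, most of it Fbln1 (means of 169 and 185 CPM). Within the trophoblast sum, Tfap2c and Ascl2 were lower and Krt8 and Krt18 higher. Ctcf itself had a log2 ratio of -0.05 ± 0.05, and the counts of genes cannot check the deleted element. Counts of the Y-linked genes Eif2s3y, Ddx3y and Uty were 0 to 6 in WT and 267 to 920 in CBE-KO, so the groups differed in more than their labels state. The part of these differences in the results below was not tested. In bulk RNA, fewer cells that express a gene cannot be told apart from less RNA of it per cell.

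Of the 38 genes, 26 had enough counts to be tested and 16 of these passed, 5 higher and 11 lower in CBE-KO. Over all tested genes 43.1% passed, 21.6% as higher and 21.5% as lower. Of the 12 feedback inhibitors and ERK target genes, all tested, 9 were lower and none was higher, where 21.5% of all tested genes were lower. No member of these 12 was higher at an unadjusted p under 0.05 in edgeR, nor at an adjusted p under 0.05 in DESeq2. Of the 12 tested secreted ligands and receptors, 4 were higher and 2 lower. The median log2 ratio was -0.41 for the 12 feedback and target genes and 0.049 for the 12 secreted ligands and receptors, beside 0.0067 for all tested genes. The 4 CPM values separated the groups without overlap for 23 of the 26 genes, but so they did for 70.4% of all tested genes. A passing test together with a log2 ratio beyond 1 or -1 was reached by 7 of the 26, against 8.64% of all genes. These were Spry2, Spry4, Etv1, Etv4 and Fgf15, which fell, and Fgf8 and Fgf13, which rose. With 8 and 4 counts in WT, Fgf8 entered the test only through its CBE-KO libraries, where it was higher. Fgf13, with 16 and 9 counts in WT, also needed its higher CBE-KO counts to be tested.

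**Figure D1:**
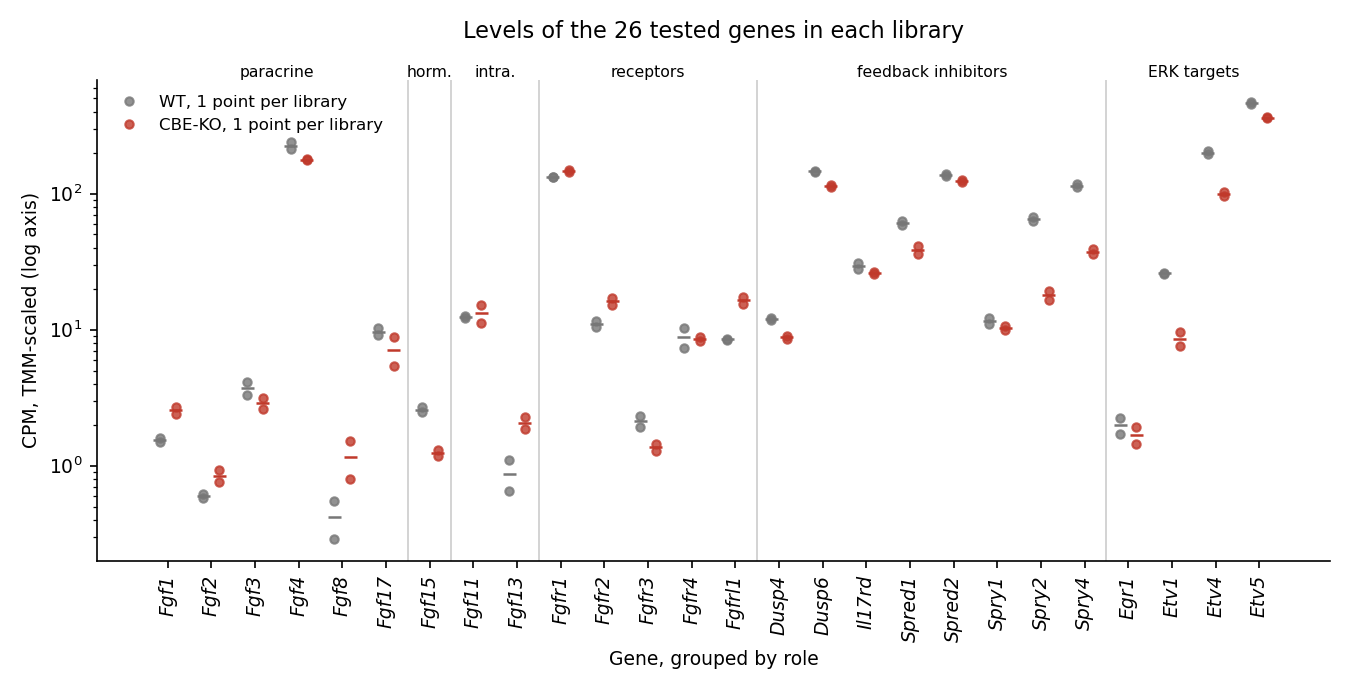
TMM-scaled CPM on a log axis for each of the 26 tested genes, grouped by role, with 1 point per library (WT grey, CBE-KO red) and a bar at the mean of the 2 libraries of a group. The CBE-KO points of Spry2, Spry4, Etv1 and Etv4 lie well below the WT points, while those of Fgfr2 and Fgfrl1 lie above them, and levels of different genes are not comparable because CPM is not divided by gene length.

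Among the secreted ligands, Fgf4 had by far the most counts in each library, and it was lower in CBE-KO. Its counts were 3107 and 3266 in the WT libraries against 2887 and 2581 in those of CBE-KO, or 213 and 237 CPM against 178 and 177 CPM. Both CBE-KO values lay below both WT values, and the log2 ratio was -0.34 ± 0.05 (SE, with an adjusted p of 7.19e-05 by edgeR). Fgf15, the mouse counterpart of a hormone-like FGF of the gut, had 36 and 37 counts in the WT libraries against 19 and 19 in those of CBE-KO. The groups did not overlap, and the level went down from 2.58 ± 0.160 CPM to 1.24 ± 0.0955 CPM (SD, n = 2 each), a log2 ratio of -1.05 ± 0.32 (SE, with an adjusted p of 0.0134 by edgeR). In edgeR fits on 3 libraries it did not pass without WT replicate 2 (-0.996, adjusted p = 0.0568) or CBE-KO replicate 1 (-0.98, adjusted p = 0.0938), nor in DESeq2 (-1.07, adjusted p = 0.108). The noncoding gene Gm26793 overlaps Fgf15, and since the use of strand is not given in the sources used here, their reads cannot be told apart.

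Fgf8, a ligand of gastrulation and of the early midbrain and limb, was close to the floor and rose. It had 8 and 4 counts in the WT libraries against 13 and 22 in those of CBE-KO, so the groups were separate but the CBE-KO libraries differed widely from each other. The log2 ratio was 1.42 ± 0.54 (SE, with an adjusted p of 0.0422 by edgeR), and this call rested on few reads. It was lost without WT replicate 1 (1.94, edgeR adjusted p = 0.0557), WT replicate 2 (1.05, adjusted p = 0.245) or CBE-KO replicate 2 (0.91, adjusted p = 0.418), and in DESeq2 (adjusted p = 0.207). Fgf17, of the same subfamily as Fgf8, had 150 and 125 counts in the WT libraries against 87 and 129 in those of CBE-KO. Its log2 ratio of -0.45 ± 0.20 did not pass (SE, with an adjusted p of 0.0789 by edgeR), and the outcome turned on single libraries. It passed without WT replicate 2 (-0.54, edgeR adjusted p = 0.0176) or CBE-KO replicate 2 (-0.85, adjusted p = 0.00118), while without CBE-KO replicate 1 the value was -0.13. With all 4 libraries it also passed without a filter on low counts (adjusted p = 0.0337) and with robust moderation (adjusted p = 0.0453).

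The 3 other secreted ligands that were tested did not pass. Fgf1, which binds all FGF receptors, had 22 and 22 counts in the WT libraries against 44 and 35 in those of CBE-KO, groups that did not overlap. Its log2 ratio was 0.72, with a 95% interval from 0.08 to 1.36 (edgeR adjusted p = 0.0666), and it passed when libraries were scaled by their totals alone (0.82, adjusted p = 0.0351). Fgf2, another broadly acting ligand, had 9 and 8 counts in the WT libraries against 15 and 11 in those of CBE-KO, with an interval from -0.54 to 1.52 on the log2 scale. Fgf3, which takes part in inner ear development, had 48 and 57 counts in the WT libraries against 51 and 38 in those of CBE-KO. Its interval ran from -0.89 to 0.17, so a change of moderate size in either Fgf2 or Fgf3 was not detectable at this depth.

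A group of 3 neighbours on chromosome 7 belongs to the ligands: Fgf3, Fgf4 and Fgf15 lie within 62.3 kb (GRCm38, the assembly named mm10 in the submitters' processing notes). Fgf3 occupies positions 144838612 to 144843348, Fgf4 144861386 to 144865245 and Fgf15 144896532 to 144900953, and the RefSeq table lists 1 further gene there, Gm26793. The 3 FGF genes had log2 ratios below 0, and of these Fgf4 and Fgf15 passed while Fgf3 did not. The HoxA cluster is on chromosome 6, and of the 38 genes only Fgf6 is on that chromosome. The 38 genes are spread over 15 chromosomes.

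A further 12 FGF genes were too low to test. Fgf5, a marker of the primed epiblast, had 2 and 2 counts in the WT libraries against 4 and 0 in those of CBE-KO, at or near the floor in each library. Fgf6 had a single count in WT replicate 2 and Fgf16 a single count in CBE-KO replicate 2. Across WT 1, WT 2, CBE-KO 1 and CBE-KO 2, Fgf14 had 1, 0, 1 and 2 counts and Fgf20 had 0, 1, 3 and 2. In the same order Fgf12 had 0, 1, 5 and 2 counts, and Fgf9 had 3, 1, 1 and 7, with no pattern that this depth could resolve. Fgf10, a ligand of lung and limb buds, had 4 and 2 counts in the WT libraries against 9 and 7 in those of CBE-KO, and Fgf22 had 5 and 6 against 8 and 11. Fgf7, a ligand made by mesenchyme, was uneven within WT, at 7 and 19 counts, against 7 and 8 in CBE-KO. Fgf18 had 11 and 9 counts in the WT libraries against 4 and 7 in those of CBE-KO, and the metabolic hormone gene Fgf21 had 5 and 4 against 9 and 18. Fitted without a filter on low counts, none of the 12 passed in edgeR, and Fgf21 had the lowest adjusted p, 0.0711.

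Fgf11 to Fgf14 encode proteins that stay inside the cell, bind voltage-gated sodium channels and do not act as ligands of the receptors. Fgf13, on the X chromosome, had 16 and 9 counts in the WT libraries against 37 and 27 in those of CBE-KO. The groups did not overlap, and the log2 ratio was 1.23 ± 0.39 (SE, with an adjusted p of 0.0157 by edgeR). The call was lost without WT replicate 2 (0.91, edgeR adjusted p = 0.116) or CBE-KO replicate 1 (1.07, adjusted p = 0.136) and in DESeq2 (adjusted p = 0.119). Fgf11 had 178 and 172 counts in the WT libraries against 246 and 164 in those of CBE-KO. The CBE-KO libraries enclosed the WT values, and the log2 ratio of 0.10 had an interval from -0.21 to 0.42.

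The receptors were all tested, and 3 of 5 rose, where 21.6% of all tested genes did. None was lower, also none at an unadjusted p under 0.05 in edgeR and none in DESeq2. Fgfrl1, a receptor-like protein without a tyrosine kinase domain, had 123 and 117 counts in the WT libraries against 284 and 224 in those of CBE-KO. Both CBE-KO values were far above the WT values, at 16.4 ± 1.49 against 8.46 ± 0.0623 CPM (SD, n = 2 each). The log2 ratio was 0.96 ± 0.14 (SE, with an adjusted p of 2.63e-05 by edgeR), a 1.94-fold higher level. Fgfr2, which binds among others Fgf4 and is prominent in primitive endoderm and trophoblast, had 168 and 144 counts in the WT libraries against 248 and 249 in those of CBE-KO. The groups did not overlap, and the log2 ratio was 0.56 ± 0.13 (SE, with an adjusted p of 0.00250 by edgeR). Its rise and that of Fgfrl1 passed under all 12 alternatives run for single genes, the 4 fits without 1 library included.

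Fgfr1, the receptor with the most counts in these cells, was higher by a small amount. Its values were 132 and 132 CPM in WT and 145 and 149 CPM in CBE-KO, and the log2 ratio was 0.15 ± 0.05 (SE, with an adjusted p of 0.0168 by edgeR). This passed in neither DESeq2 (adjusted p = 0.124) nor the edgeR fits without CBE-KO replicate 1 (0.17, adjusted p = 0.0547) or CBE-KO replicate 2 (0.13, adjusted p = 0.147). Fgfr3 had 28 and 32 counts in the WT libraries against 21 and 21 in those of CBE-KO, with a log2 ratio of -0.63 and an interval from -1.33 to 0.07 (edgeR adjusted p = 0.142). Fgfr4 had 151 and 101 counts in the WT libraries against 134 and 128 in those of CBE-KO, so the WT libraries lay on either side of the CBE-KO libraries. Its interval ran from -0.43 to 0.32.

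**Figure D2:**
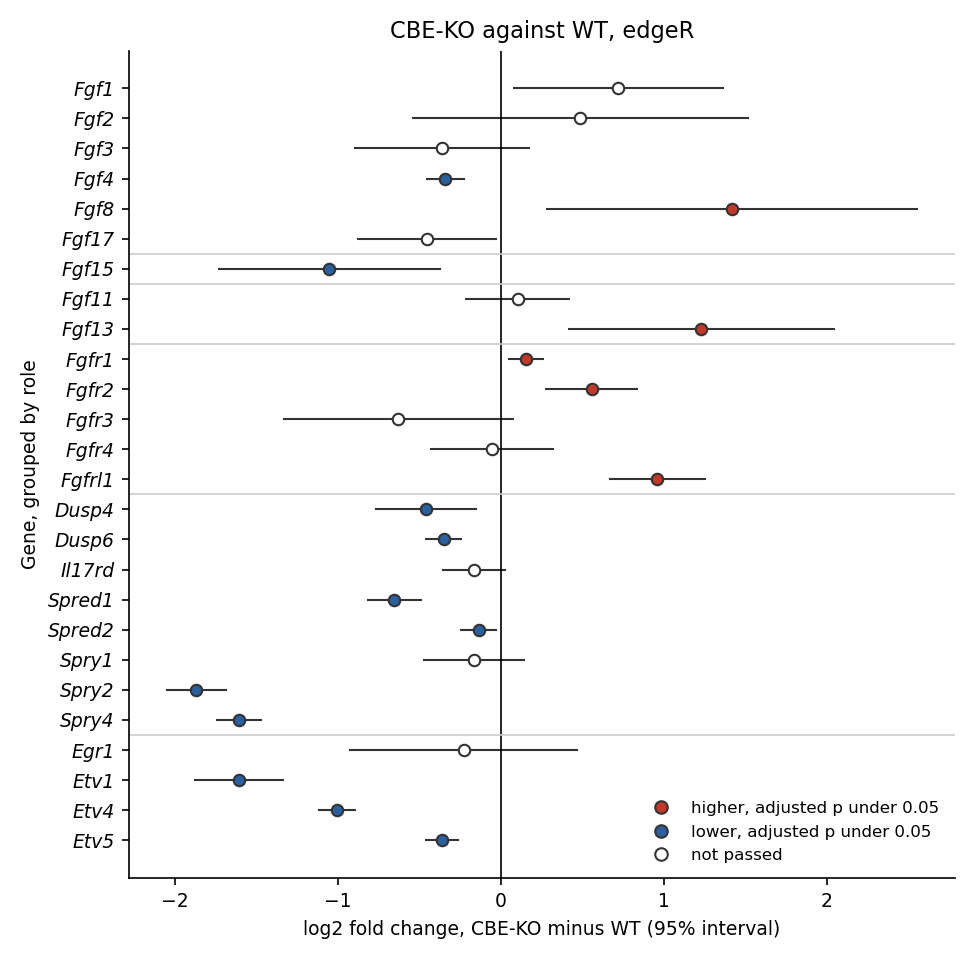
The log2 ratio of CBE-KO against WT for the 26 tested genes, with its 95% interval from the edgeR fit, filled in red for genes that were higher and in blue for genes that were lower at an adjusted p under 0.05. All 12 feedback inhibitors and ERK targets, in the lower 2 blocks, have a point estimate below 0, and the largest fall is that of Spry2 at -1.87.

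Of the 8 feedback inhibitors 6 fell and none rose, by amounts that differed widely between members. All 8 had a log2 ratio below 0, with a median of -0.41. The Sprouty proteins act below the receptor and keep it from activating Ras and Raf. Spry2, at positions 105891947 to 105896819 of chromosome 14, had 980 and 870 counts in the WT libraries against 268 and 280 in those of CBE-KO. The level went down from 65.2 ± 2.70 CPM to 17.9 ± 1.93 CPM (SD, n = 2 each), a 3.65-fold difference and the largest fall among the 26 genes. Its log2 ratio was -1.87 ± 0.09 (SE, with an adjusted p of 2.61e-11 by edgeR). Spry4, on chromosome 18, had 1624 and 1607 counts in the WT libraries against 585 and 565 in those of CBE-KO, again with wide separation and close replicates. It went down from 114 ± 4.02 CPM to 37.4 ± 1.97 CPM, a log2 ratio of -1.61 ± 0.06 (SE, with an adjusted p of 3.48e-12 by edgeR). Spry1, in contrast, had 178 and 150 counts in the WT libraries against 161 and 156 in those of CBE-KO, with a log2 ratio of -0.16 and an interval from -0.47 to 0.14. The intervals of Spry2 and Spry4 lay wholly below that of Spry1, although the difference between genes was not itself tested.

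The Spred proteins hold back Ras by bringing in neurofibromin. Spred1 had 861 and 862 counts in the WT libraries against 667 and 524 in those of CBE-KO, down from 60.8 ± 2.65 CPM to 38.6 ± 3.60 CPM (SD, n = 2 each). The groups did not overlap, and the log2 ratio was -0.65 ± 0.08 (SE, with an adjusted p of 2.90e-06 by edgeR). Spred2 had 133 and 138 CPM in WT and 126 and 121 CPM in CBE-KO. Its log2 ratio of -0.14 ± 0.05 passed narrowly (SE, with an adjusted p of 0.0356 by edgeR), and the call was lost in 8 of 12 alternatives. Among these were library totals alone (-0.033, adjusted p = 0.639), DESeq2 (adjusted p = 0.123) and the edgeR fits without WT replicate 2 (-0.12, adjusted p = 0.121), CBE-KO replicate 1 (-0.16, adjusted p = 0.0807) or CBE-KO replicate 2 (-0.11, adjusted p = 0.240).

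The phosphatases of the set remove the activating phosphates from ERK, Dusp6 in the cytoplasm and Dusp4 in the nucleus. Dusp6 had 2093 and 2028 counts in the WT libraries against 1822 and 1681 in those of CBE-KO, and its 2 CBE-KO values, 112 and 116 CPM, were below the WT values of 143 and 147 CPM. The log2 ratio was -0.35 ± 0.05 (SE, with an adjusted p of 2.14e-05 by edgeR). Dusp4 had 178 and 163 counts in the WT libraries against 138 and 131 in those of CBE-KO, a log2 ratio of -0.46 ± 0.15 (SE, with an adjusted p of 0.0172 by edgeR). It did not pass in DESeq2 (adjusted p = 0.0974), with library totals alone (-0.35, adjusted p = 0.0587) or without CBE-KO replicate 1 (-0.42, edgeR adjusted p = 0.0837). Il17rd, a membrane antagonist of FGF signalling also known as Sef, had 405 and 424 counts in the WT libraries against 433 and 371 in those of CBE-KO. Its log2 ratio of -0.16 had an interval from -0.35 to 0.03 and did not pass (edgeR adjusted p = 0.156).

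Of the ERK targets, the 3 PEA3 factors fell. Etv1, Etv4 and Etv5 form this subfamily of ETS transcription factors and carry FGF signals to the genome. Etv1 had 374 and 361 counts in the WT libraries against 122 and 139 in those of CBE-KO, down from 25.9 ± 0.459 CPM to 8.54 ± 1.44 CPM (SD, n = 2 each). Both CBE-KO libraries were far below WT, and the log2 ratio was -1.61 ± 0.13 (SE, with an adjusted p of 2.80e-08 by edgeR). Etv4 had 3000 and 2679 counts in the WT libraries against 1561 and 1498 in those of CBE-KO, down from 200.1 ± 7.46 CPM to 99.6 ± 4.79 CPM, or 2.01-fold. The log2 ratio of Etv4 was -1.01 ± 0.05 (SE, with an adjusted p of 1.51e-10 by edgeR). Etv5, with the most counts of the whole set, had 6897 and 6227 in the WT libraries against 5808 and 5273 in those of CBE-KO, at 472 and 453 against 358 and 362 CPM. The groups were separate with a log2 ratio of -0.36 ± 0.05 (SE, with an adjusted p of 7.27e-06 by edgeR). The 95% intervals of Etv1 (-1.88 to -1.34), Etv4 (-1.12 to -0.90) and Etv5 (-0.46 to -0.26) did not overlap, although the difference between these genes was not itself tested.

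Egr1, an immediate early zinc finger gene that ERK induces within minutes, was low in all 4 libraries. It had 25 and 31 counts in the WT libraries against 31 and 21 in those of CBE-KO, values that overlapped. Its interval on the log2 scale ran from -0.93 to 0.47, so a fall of the size seen in Etv5 could not have been told from no change at this depth.

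The falls of Spry2, Spry4, Spred1, Dusp6, Etv1, Etv4 and Etv5 passed under each of the 12 alternatives run for single genes. Those included DESeq2, other scalings, other filters and each fit without 1 library. None of the 12 feedback and target genes had a log2 ratio above 0 under any of these alternatives. Without 1 library, the median log2 ratio lay between -0.44 and -0.37 for the feedback inhibitors and between -0.72 and -0.70 for the targets. Over all tested genes it lay between 0.0010 and 0.019. By DESeq2, 4 feedback inhibitors and 3 targets were lower, where 2530 of all 16005 tested genes were. In either direction 10 of the 26 tested genes passed in DESeq2, where 28.6% of all genes did. At an adjusted p under 0.01 in edgeR the count was also 10, against 30.7% of all genes.

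**Figure D3:**
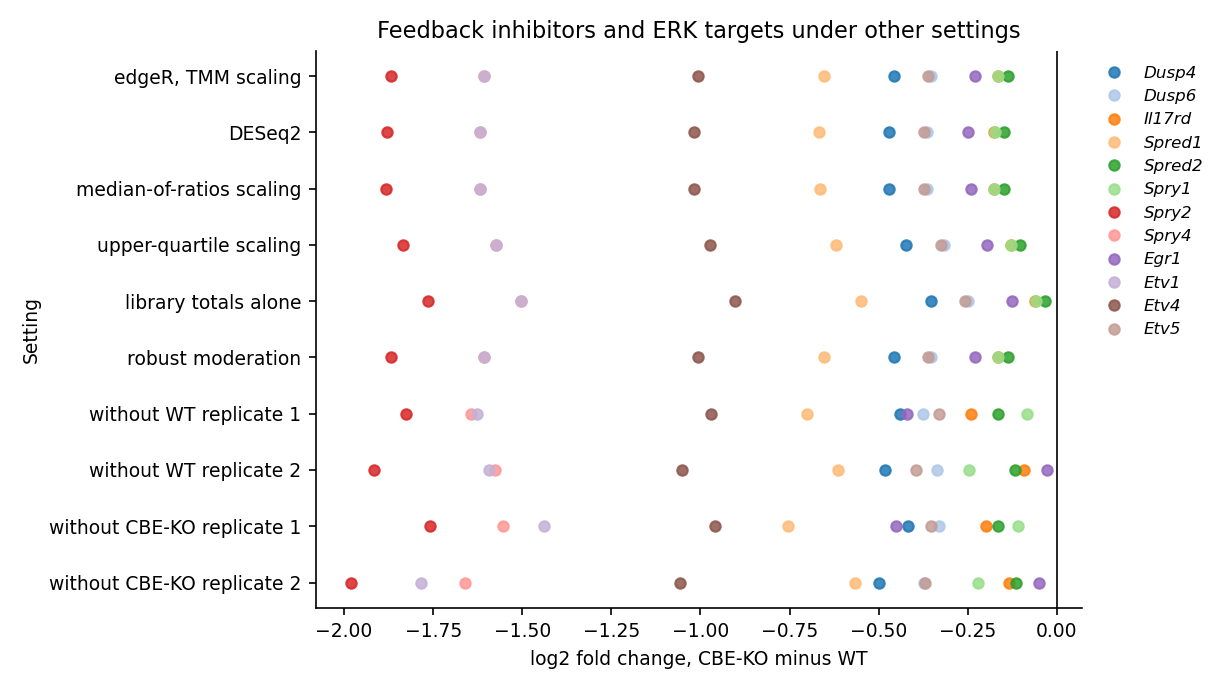
The log2 ratio of CBE-KO against WT for the 8 feedback inhibitors and 4 ERK targets, with 1 row per setting: edgeR with TMM scaling at the top, then DESeq2, other scalings, robust moderation and the fits without 1 library. All points lie below 0, and Spry1, Il17rd, Egr1 and Spred2 come closest to it.

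Promoter sequences are shown for genes that moved in opposite directions. RefSeq promoter windows on GRCm38.p6 were matched by symbol for 27 of the 38 genes, with 36 windows in all, and for 6 of the 9 feedback and target genes that fell, with 8 windows. Spry4, Dusp4 and Etv4 had none. The 250 bases before the start of each were searched on both strands for TGAATGAA and TGAATGGA, octamers bound by Capicua, a repressor of PEA3 genes that ERK inactivates. CCGGAAG, an ETS binding core with its flank, and AGGTCA, a nuclear receptor half-site, were searched in the same way. TGAATG, the first 6 letters of both octamers and so contained in each, was added after the sequences had been read. The windows of Spry2 and Etv1, the largest falls with a window, held none of these 5 motifs. Other forms of the octamer were not searched, so these windows may still hold a site for Capicua. By its printed letters the Spry2 window held ttcattga, and the Dusp6 window held tccattga. Read on the other strand, these differ from TGAATGAA and TGAATGGA, respectively, in a single letter. Whether Capicua binds either was not tested. Etv5 had 2 windows, and the window shown was picked because it held TGAATG, which it did 3 times. The other Etv5 window held no TGAATG, and the window shown lies within the span of the gene. The Dusp6 window held TGAATG once, and the Fgfrl1 window held CCGGAAG once. Capitals mark TGAATG or CCGGAAG on either strand, and each window is written 5′ to 3′ on the strand of the gene. Spry2 is shown at chr14:105896820-105897069 (minus strand), Etv1 at chr12:38779832-38780081 (plus), Etv5 at chr16:22438369-22438618 (minus), Dusp6 at chr10:99262981-99263230 (plus) and Fgfrl1 at chr5:108693979-108694228 (plus).
Spry2: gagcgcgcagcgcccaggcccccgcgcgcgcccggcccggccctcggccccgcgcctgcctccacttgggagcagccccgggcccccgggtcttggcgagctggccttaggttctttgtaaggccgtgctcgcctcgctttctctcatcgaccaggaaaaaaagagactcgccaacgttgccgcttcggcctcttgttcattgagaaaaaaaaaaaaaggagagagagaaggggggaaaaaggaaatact
Etv1: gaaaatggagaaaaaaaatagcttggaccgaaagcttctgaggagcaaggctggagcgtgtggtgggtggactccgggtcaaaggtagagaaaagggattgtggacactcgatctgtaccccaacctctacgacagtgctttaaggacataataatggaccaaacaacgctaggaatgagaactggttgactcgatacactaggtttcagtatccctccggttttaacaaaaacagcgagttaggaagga
Etv5: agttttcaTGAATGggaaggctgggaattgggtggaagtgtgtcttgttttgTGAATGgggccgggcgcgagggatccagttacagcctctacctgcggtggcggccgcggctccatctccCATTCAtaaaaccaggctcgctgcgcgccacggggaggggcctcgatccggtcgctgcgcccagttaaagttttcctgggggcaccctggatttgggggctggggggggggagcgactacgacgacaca
Dusp6: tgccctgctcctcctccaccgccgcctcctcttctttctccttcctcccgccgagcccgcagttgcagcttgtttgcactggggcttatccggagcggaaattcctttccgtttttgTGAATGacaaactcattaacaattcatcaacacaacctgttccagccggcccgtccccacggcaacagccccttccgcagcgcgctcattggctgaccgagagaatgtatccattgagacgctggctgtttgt
Fgfrl1: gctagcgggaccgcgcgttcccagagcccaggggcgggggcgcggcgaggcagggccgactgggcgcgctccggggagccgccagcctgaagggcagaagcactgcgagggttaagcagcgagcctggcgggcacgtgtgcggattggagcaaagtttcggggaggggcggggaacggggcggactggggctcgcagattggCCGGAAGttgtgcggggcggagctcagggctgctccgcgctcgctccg

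TGAATG was present in 2 of the 8 windows of fallen feedback and target genes, 4 of the 36 windows of the set and 10.9% of the 32817 windows of all genes. Of the full octamers searched, TGAATGAA was in 1 of the 36 windows, that of Fgf21, and in 1.08% of all windows. TGAATGGA was in none of the 36 and 1.01% of all. The ETS core was in 1 of the 36 and 6.91% of all windows, and AGGTCA in 3 of the 36, of Fgf6, Fgf7 and Fgf12, and 14.03% of all. A motif match describes the letters of a window and does not show binding. The windows shown for Spry2, Etv5, Dusp6 and Fgfrl1 had 62.4%, 62.0%, 56.4% and 73.6% G and C, and that of Etv1 46.4%.

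The other genes of the pathway, on lists fixed by role, were split between rises and falls, and each count below stands beside 21.6% of all tested genes higher and 21.5% lower. Of 25 genes of the ERK cascade, from receptor adaptors to ERK itself and its kinases, all were tested, 8 rose and 6 fell, and the median log2 ratio was -0.0042. With library totals alone the split was 9 to 3, where 4770 of all 16005 tested genes were higher and 2352 lower. No gene of this list passed with a log2 ratio beyond 1 or -1. Sos2 and Sos1, exchange factors that load Ras with GTP, rose by 0.77 ± 0.15 and 0.42 ± 0.08 on the log2 scale (SE; edgeR adjusted p = 0.000387 and 0.000271). Shc1, an adaptor between receptors and Ras, had 2815 and 2782 counts in the WT libraries against 2026 and 1768 in those of CBE-KO, a log2 ratio of -0.68 ± 0.05 (SE, with an adjusted p of 1.01e-08 by edgeR). Mapk3, the gene of ERK1, rose by 0.38 ± 0.05 (SE, with an adjusted p of 1.44e-05 by edgeR).

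Heparan sulfate enzymes, proteoglycans and other partners of the receptors formed a list of 28 genes. Of 26 tested, 10 rose and 6 fell, with a median of 0.11. Flrt2, a membrane protein of a family that binds FGF receptors, had 11 and 12 counts in the WT libraries against 80 and 40 in those of CBE-KO, a log2 ratio of 2.24 ± 0.37 (SE, with an adjusted p of 9.02e-05 by edgeR). Cdh2, the N-cadherin gene, rose by 1.43 ± 0.26 (SE, with an adjusted p of 0.000230 by edgeR). Sdc4, a heparan sulfate proteoglycan of the cell surface, had 1186 and 1147 counts in the WT libraries against 505 and 468 in those of CBE-KO, a log2 ratio of -1.38 ± 0.07 (SE, with an adjusted p of 5.31e-11 by edgeR). Fgfbp1, a carrier that frees FGFs from the matrix, had 26 and 31 counts against 15 and 8, a log2 ratio of -1.42 ± 0.40 (SE, with an adjusted p of 0.00804 by edgeR). It needed its higher WT counts to enter the test.

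A list of 29 further feedback and early response genes had 28 with an identifier and 24 tested, of which 5 rose and 7 fell, with a median of -0.11. Elk3, an ETS factor that is phosphorylated by ERK, had 53 and 60 counts in the WT libraries against 197 and 173 in those of CBE-KO, a log2 ratio of 1.59 ± 0.18 (SE, with an adjusted p of 1.28e-06 by edgeR). Myc went down from 70.1 ± 0.198 CPM to 26.6 ± 2.14 CPM (SD, n = 2 each), a log2 ratio of -1.40 ± 0.08 (SE, with an adjusted p of 2.17e-10 by edgeR). Junb, an AP-1 subunit, went from 14.6 ± 0.774 to 6.46 ± 0.682 CPM (edgeR adjusted p = 8.29e-06). Dusp2, a nuclear phosphatase of ERK, had 20 and 23 counts against 8 and 11, a log2 ratio of -1.28 ± 0.43 (SE, with an adjusted p of 0.0239 by edgeR). It too needed its higher WT counts to enter the test. Dusp9, chosen here after its values were seen, is a phosphatase of ERK on the X chromosome and moved the other way. It had 17336 and 15975 counts in the WT libraries against 31604 and 28829 in those of CBE-KO, a log2 ratio of 0.74 ± 0.04 (SE, with an adjusted p of 4.21e-10 by edgeR).

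**Figure D4:**
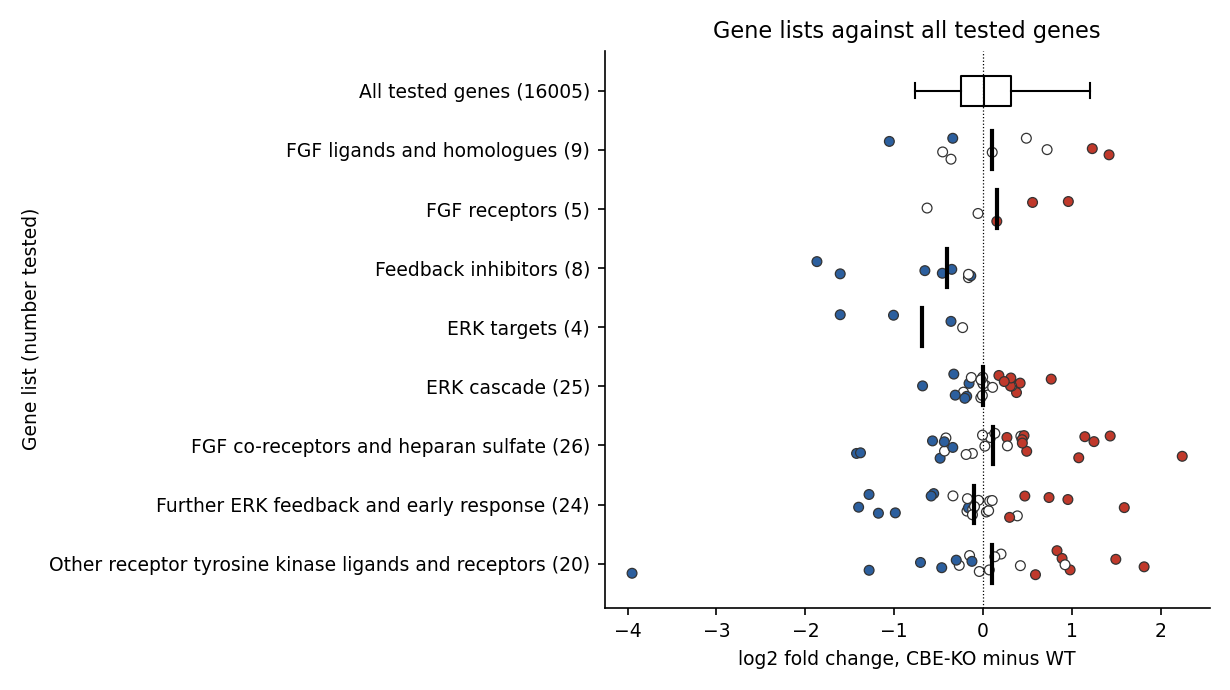
The log2 ratio of CBE-KO against WT for each tested gene of the FGF and ERK classes and of the 4 other lists, with 1 point per gene (red higher, blue lower, white not passed) and a black bar at the median of the list. The box at the top gives the quartiles of all 16005 tested genes with whiskers from the 5th to the 95th percentile, and the medians of the feedback inhibitors and ERK targets, -0.41 and -0.68, lie to the left of the other medians.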

How the data were processed

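RNA-seq of WT and CBE-KO cells was used, 2 libraries each, with groups and replicate numbers taken from the titles of the samples. Deposited for each library was a table of counts per Ensembl gene, without normalization by the authors. The submitters' processing notes name HISAT2 2.1.0, HTSeq 0.9.1, DESeq2 1.18.1, Bowtie2 2.3.1 and mm10 for the series. The annotation, the use of strand and the treatment of reads that match several genes are not given in the sources used here, so 10 of the 38 genes, which overlap another RefSeq gene, may share reads with it (Fgf1, Fgf2, Fgf7, Fgf12 to Fgf15, Fgf17, Fgfr1 and Dusp6).

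Counts of 52636 identifiers were filtered with edgeR's filterByExpr, scaled by TMM and tested with glmQLFit and glmQLFTest of edgeR 4.0.16 (R 4.3.3), two-sided, with Benjamini-Hochberg adjustment over 16005 genes. Errors are SD over 2 libraries or the SE of the log2 fold change. Floors of 3 counts cover counting error only, since reads are not independent molecules. Symbols came from a supplied table that matched 52403 identifiers, and positions and promoters from RefSeq GRCm38.p6. The members, the lists and the tests were chosen with earlier results of these data known. All 38 members are named, and from each further list the 4 passing genes with the greatest log2 change in either direction. Of the marker lists, 4 of 10 neural progenitor, 7 of 10 mesoderm, 8 of 10 trophoblast and 4 of 10 fibroblast genes were tested. In this order 2, 1, 2 and 3 were higher, where 21.6% of all tested genes were. Lower were 1, 0, 2 and 0, where 21.5% of all tested genes were (at an unadjusted p under 0.05, no mesoderm or fibroblast gene was lower). The fibroblast genes Postn, Lum, Dcn and S100a4 had 0 counts in all libraries. DESeq2 1.42.0, other scalings, filters, thresholds, robust moderation, a replicate block and the omission of each library served as alternatives. The test was checked on simulated counts.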

Additional observations from a re-analysis of the deposited data

How the results depend on the processing

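The number of changed genes was 6895 in edgeR, 4577 in DESeq2 and 1383 with a log2 ratio beyond 1 or -1 as a further condition. With library totals alone 67.0% of changed genes were higher, against 50.2% with TMM, and the median log2 ratio over all genes moved to 0.11. Of the 26 tested members, 16 passed, and 10 did in DESeq2, 10 at an adjusted p under 0.01 and 7 with a log2 ratio beyond 1 or -1. Of the 9 tested ligands and intracellular FGFs, 4 passed in edgeR, 1 in DESeq2 and 1 at an adjusted p under 0.01. Over all tested genes 43.1%, 28.6% and 30.7% passed, in the same order. Requiring a log2 ratio beyond 1 or -1 left 0 of the 3 receptors (3 had passed at an unadjusted p under 0.05 in edgeR, and 2 passed in DESeq2), 2 of the 6 feedback inhibitors and 15 of the 54 genes of the other lists. The counts for ERK targets stayed between 2 and 3 under all alternatives. Leaving the stricter thresholds aside, 16 of the 26 kept both direction and call under every alternative, 8 changed their call in at least 1, and 2 that had not passed, Fgf11 and Fgfr4, changed only in sign. Fgfr4 (-0.06) turned to 0.048 with library totals alone and ranged from -0.28 to 0.21 without 1 library, and Fgf11 (0.10) ranged from -0.13 to 0.30. The causes were not tested, apart from the stricter thresholds, which lower counts by construction. In fits without 1 library the lone sample of a group is assumed to vary like the others. With the replicate block, 16 members and 7027 genes passed, Spred2 was lost (adjusted p = 0.0525) and Fgf17 gained (adjusted p = 0.0281). The labels do not say that the replicate numbers pair libraries, and the deviations of same-numbered libraries from their groups correlated at 0.037, so the block was not used for the values above. Genes under about 10 counts per library, 0.616 to 0.727 CPM, were mostly not testable.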

Other observations

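Ligands and receptors of other receptor tyrosine kinases, which feed into the same ERK cascade, formed a list of 27 genes, of which 20 were tested, 6 rose and 6 fell (21.6% and 21.5% of all tested genes did), with a median log2 ratio of 0.10. With library totals alone 8 rose and 5 fell, where 4770 of all 16005 tested genes were higher and 2352 lower. Igf2, an imprinted growth factor gene, had 238 and 180 counts in the WT libraries against 12 and 17 in those of CBE-KO, a log2 ratio of -3.95 ± 0.24 (SE, with an adjusted p of 9.47e-10 by edgeR). Pdgfa, a ligand that acts on primitive endoderm, had 870 and 871 counts in the WT libraries against 404 and 373 in those of CBE-KO, a log2 ratio of -1.28 ± 0.08 (SE, with an adjusted p of 6.60e-10 by edgeR). Met, the receptor of hepatocyte growth factor, had 9 and 8 counts against 25 and 40 (1.81 ± 0.43, SE; edgeR adjusted p = 0.00258). Kdr, a receptor of vascular endothelial growth factor, had 6 and 6 counts against 15 and 22 (1.49 ± 0.51, SE, with an adjusted p of 0.0243 by edgeR). Both Met and Kdr had under 10 counts in each WT library and entered the test only through their higher CBE-KO counts.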
